A study of Mus musculus with 11 samples.

Results

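The genes described here encode the proteins of the cytosolic ribosome, the particle that translates the messages made in the nucleus. They were chosen by name among the protein-coding genes of the table, as every Rps or Rpl gene with its numbered symbol, the stalk genes Rplp0, Rplp1 and Rplp2, and Rpsa, and the choice used no measured value. This gave 83 of 55486 genes: 32 of the small subunit, 48 of the large subunit and 3 of the stalk, with 6 tissue-restricted or alternative paralogs (Rps27l, Rpl3l, Rpl7l1, Rpl10l, Rpl22l1 and Rpl39l) counted in their subunits. RNA came from eosinophils sorted from heart-puncture blood of FVB/N mice that carried metastatic disease from mammary tumours, and libraries were made with Smart-seq2, a full-length protocol for small RNA amounts. Of the mice, 7 (treated 1 to treated 7) were given cisplatin, a drug that crosslinks DNA, with antibodies against PD1 and CTLA4, both checkpoint receptors of T cells. The other 4 mice (control 1 to control 4) were given control antibody and carried the same disease. All blood was taken on day 21 of treatment, with 1 library per mouse, and after red cell lysis the gate was live CD45+ CD3- CD11b+ F4/80+ with low Ly6g and high side scatter. The treated mice differ from the control mice in the drug and both antibodies at once, so the agents cannot be told apart.

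Each ribosome carries a single copy of almost all of these proteins, and their genes are switched on together in growing cells. Their messages begin with a run of pyrimidines, the terminal oligopyrimidine (TOP) tract, through which mTORC1 and the RNA-binding protein LARP1 control their translation. A change in the messages therefore need not match a change in ribosome output. Eosinophils in blood are mature granulocytes that no longer divide.

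The libraries held 5356118 to 8016658 counts in treated mice and 3733156 to 6721060 counts in control mice. The 7 eosinophil markers (Siglecf, Ccr3, Il5ra, Epx, Prg2, Adgre1 and Alox15) were all in the table, with a summed level of 3458 to 9714 counts per 1000000 (CPM of the library total) in treated mice and 3877 to 10480 in control mice. Single markers were uneven. Epx ran from 0 to 104 CPM in treated mice and from 1.55 to 81.2 in control mice. Prg2 ran from 33.2 to 648 CPM in treated mice and from 36.3 to 1531 in control mice. Messages of other blood cells were present too. Summed erythroid markers ran from 12320 to 46870 CPM in treated mice and from 1710 to 293600 in control mice, with 8 of 9 markers in the table. Haemoglobin genes took 28.2% of counts in control 3 and 20.1% in control 4, against 0.165% to 4.42% in the other 9 libraries. Summed platelet markers ran from 651 to 2763 CPM in treated mice and from 146 to 6353 in control mice. Summed B cell markers ran from 389 to 2812 CPM in treated mice and from 126 to 1410 in control mice. Of these, Bank1 ran from 155 to 403 CPM in treated mice and from 118 to 646 in control mice. It made up most of the sum in treated 1, treated 7, control 3 and control 4. Summed neutrophil markers ran from 5492 to 13500 CPM in treated mice and from 5891 to 12090 in control mice. Most of this sum was Retnlg alone, at 5416 to 13380 CPM in treated mice and 4929 to 12050 in control mice. No other neutrophil marker exceeded the level of S100a8 in control 3 (986 CPM). Ly6g ran from 0 to 15.2 CPM in treated mice and from 0 to 13.9 in control mice. Summed monocyte and macrophage markers ran from 1674 to 14380 CPM in treated mice and from 960 to 11220 in control mice. For T cell markers the sums were 23.1 to 63.9 CPM in treated mice and 17.1 to 31.1 in control mice. No marker list had a gene that stayed at 0 in all libraries. The identifiers in the table's header carry the number 19 in all treated and 20 in all control libraries, and whatever this marks cannot be told apart from treatment.

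Of the 83 genes, 79 were detected in all 11 libraries and passed the filter on low counts. Rps10 (45 counts in all libraries together), Rpl24 (42), Rpl39l (14) and Rpl10l (0) did not pass. Rpl39l, a paralog known mainly from testis, had 0 counts in all 7 treated libraries and counts in control 1 (6) and control 4 (8) only. Rpl10l, an autosomal retrocopy that stands in for Rpl10 in male germ cells, had 0 counts in all libraries, which allows a level of up to 0.0444 CPM over the 67622955 counts of the series (3 counts, counting error only). Rps10 and Rpl24 encode core proteins found in every ribosome, so their low counts stand apart from the rest of the set; the table holds 4 pseudogene rows named after Rps10 and none named after Rpl24, and whether reads of these genes were assigned elsewhere was not tested.

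Per base of transcript, Rps9 was the most abundant of these messages. Rps9 encodes a small-subunit protein near the messenger channel (GRCm38 chr7:3703993-3706897, plus strand). Its level was 785 ± 101 CPM per kilobase in treated mice (SD, n = 7) and 1033 ± 378 in control mice (SD, n = 4). CPM of single genes were scaled with TMM, which corrects library totals for a few dominant genes, and lengths are those of 1 annotated transcript per gene. Rps27, a small-subunit protein with a zinc finger, followed with 482 ± 113 CPM per kilobase in treated mice and 689 ± 218 in control mice. Rpl4, which lines the exit tunnel of the large subunit, had a level of 375 ± 63.5 CPM per kilobase in treated mice and 417 ± 93.0 in control mice. The stalk base gene Rplp0 stood at 320 ± 61.7 CPM per kilobase in treated mice and 365 ± 91.1 in control mice, and Rpl13 at 260 ± 89.6 in treated mice and 310 ± 79.8 in control mice. The median of all 83 levels was 80.2 CPM per kilobase, 30 genes lay above 100 and 8 below 10. The order is loose. Of 82 pairs of neighbours in it, 77 differed by less than the SD between libraries, and at the top Rps9 stood apart from Rps27. One ribosome holds nearly equal numbers of these proteins. In counts not corrected for length, the 3 genes with the most counts (Rps9, Rpl4 and Rplp0) took 22.7% of all counts of the set. The 10 with the most took 43.7%. Transcript length and the assignment of shared reads enter these percentages, and their part was not tested. At the low end of the tested genes were Rpl13a at 5.84 and Rpl3l, a paralog of Rpl3 known from heart and skeletal muscle, at 2.72 CPM per kilobase. Rps20 had 9.29 CPM per kilobase over an annotated transcript of 3706 bases, the longest of the set, so its place rests on that annotation.

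The start sites of several of these genes show the pyrimidine run in the genome. RefSeq windows from 250 bases before to 50 bases after the annotated start (GRCm38.p6) matched 63 of the 83 genes by symbol. A run of at least 8 bases of C or T on the coding strand that reached within 10 bases of the start was present in 29 of these 63 genes (46.0%), against 16.1% of the 27025 genes with a window. The letters CCGGAAG, the core bound by ETS factors, lay on either strand of the window in 26 of the 63 (41.3%), against 9.93% of all genes. AAGATGGC, a YY1 core, lay on either strand in 6 (9.52%), against 3.19%, and TATAAA, the TATA box, in 7 (11.1%), against 15.7%. None of these motifs contains another, though the opposite strand of the ETS core opens with pyrimidines and can overlap a run, and a match is a description of the letters, not evidence of binding. Shown here are 40 bases before and 20 from the annotated start of the most abundant gene (Rps9), of Rpl4, of Rps25 and Rps27l, both among the 5 genes with an unadjusted p under 0.05, and of Rps27, the partner of Rps27l. The pyrimidine run is in capitals, and for Rps27l the annotated start with a run is shown. Rpl41 and Rpl37, the 2 large-subunit genes among those 5, are given with them, and no such run was found near their annotated starts. The search covered only bases near these RefSeq starts. For Rpl41 the start (128549168) lies inside the gene's annotated span, and for Rpl37 (5116613) it lies before the span. Whether genes without a run here carry the tract at the start they use was not tested.
Rps9, chr7:3704001-3704060, plus strand: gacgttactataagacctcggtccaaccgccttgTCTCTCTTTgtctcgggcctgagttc
Rpl4, chr9:64173347-64173406, plus strand: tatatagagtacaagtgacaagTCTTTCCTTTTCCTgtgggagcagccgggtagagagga
Rps25, chr9:44407674-44407733, plus strand: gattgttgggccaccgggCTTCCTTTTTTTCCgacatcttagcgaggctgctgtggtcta
Rps27, chr3:90213629-90213688, minus strand: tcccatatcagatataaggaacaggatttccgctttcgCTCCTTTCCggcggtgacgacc
Rps27l, chr9:66946046-66946105, plus strand: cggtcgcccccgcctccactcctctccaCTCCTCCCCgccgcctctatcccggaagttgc
Rpl41, chr10:128549149-128549208, minus strand: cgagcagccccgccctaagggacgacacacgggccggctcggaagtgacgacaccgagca
Rpl37, chr15:5116573-5116632, plus strand: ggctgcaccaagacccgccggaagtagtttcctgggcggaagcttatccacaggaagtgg
The run covers the annotated start in Rps9 and Rps27, and it ends 4 bases before the start in Rpl4, 8 bases in Rps25 and 3 bases in Rps27l. Tested genes with and without a run stood close together. The median log2 fold change, treated minus control, was -0.24 over the 28 with a run and -0.22 over the 31 without one, and their median levels were 82.3 and 82.9 CPM per kilobase.

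As a whole, the ribosomal protein genes took 0.764 ± 0.242% of counts in treated mice (SD, n = 7) and 0.745 ± 0.214% in control mice (SD, n = 4). The treated libraries stood at 0.560, 0.720, 1.22, 0.811, 0.647, 0.896 and 0.500% in the order treated 1 to treated 7, and the control libraries at 0.638, 1.07, 0.643 and 0.633% in the order control 1 to control 4. The groups overlapped over nearly their whole range, and treated 3 and control 2 were the high libraries of their groups. Leaving out haemoglobin counts set the share at 0.785 ± 0.25% in treated mice and 0.850 ± 0.178% in control mice, because control 3 and control 4 then stood at 0.895% and 0.792%. In bulk samples like these, fewer cells of a type and less RNA per cell cannot be told apart. Since the share sums over genes chosen as a set, no test was made of it. The counting interval of a library is narrow next to these differences: for treated 3 the 95% Wilson interval was 1.21% to 1.23%.

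**Figure D1:**
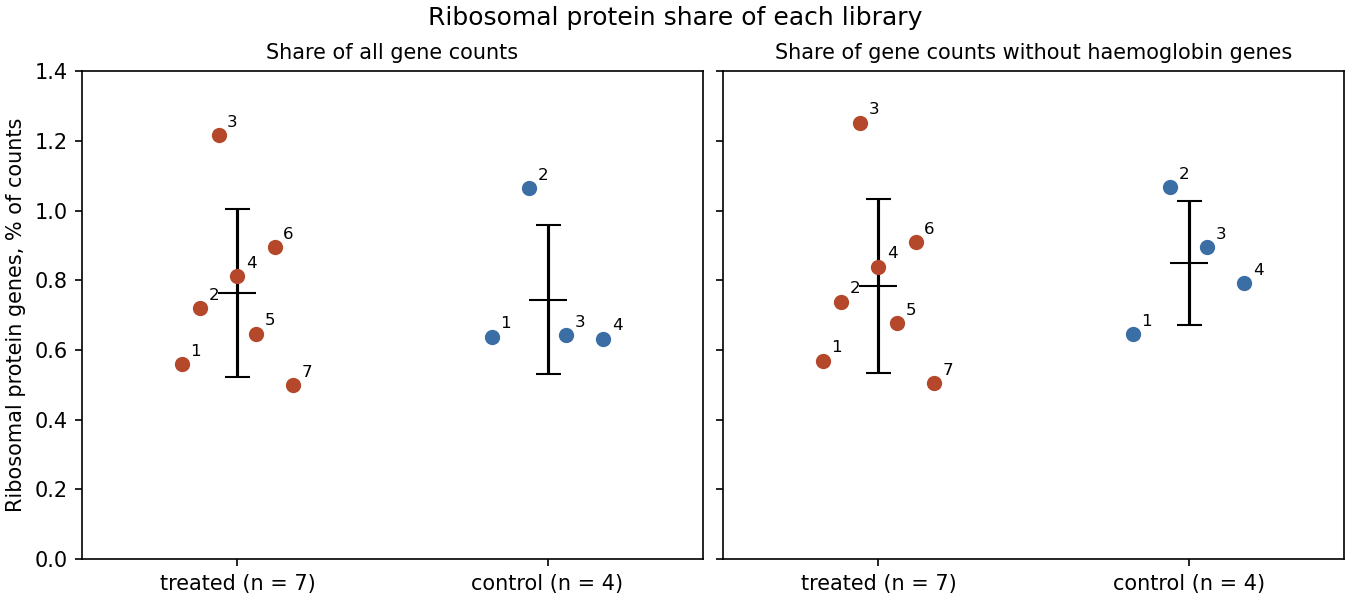
Percent of gene counts that fell on the 83 ribosomal protein genes, with treated libraries left of control libraries in each panel. Points are single libraries with their replicate number, the bar is the mean and the whiskers are the SD. Treated 3 is highest in both panels, and the control libraries 3 and 4 move up in the right panel, where haemoglobin counts are left out.

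Between groups, no ribosomal protein gene passed the test. With edgeR's quasi-likelihood test and Benjamini-Hochberg adjustment over 11389 genes, 0 of 79 had an adjusted p under 0.05, as did 0 of all genes tested (0%). DESeq2 called 0 of the 79 as well, against 82 of 12866 genes (0.637%). At an unadjusted p under 0.05 there were 5 genes of the set, all with a fold change below 0 (6.33%), against 6.82% of all genes tested in either direction and 3.13% in that direction, and no gene of the set had one above 0, against 3.70% of all genes. Below 0 lay 70 of the 79 log2 fold changes (88.6%), against 48.2% of all genes. With libraries scaled by their totals alone it was 30 of the 79, and the median of all genes was then 0.25. With TMM the median of the set was -0.23, with a range of -1.03 (Rpl41) to 0.55 (Rpl12), and the median of all genes was 0.03. These genes move together from library to library, so 70 fold changes of one sign are far from 70 separate observations. In 63 of the 79 genes the log2 fold change was smaller than 0.5 in size, and in 40 smaller than 0.25. In none of the 79 did the treated and control libraries separate without overlap, while 0.43% of all genes lay wholly lower and 0.509% wholly higher in treated mice.

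Among the scalings tried, the sign of the median changed only with library totals alone. It was -0.25 with DESeq2 size factors and -0.23 with upper-quartile scaling. With library totals alone it was 0.09, while the median of all genes stood at 0.25, so that the set lay at -0.16 relative to all genes. Control 3 and control 4, the libraries with most haemoglobin, had TMM factors of 0.670 and 0.703, against 0.979 to 1.21 in the other 9. Without these 2 libraries 45 genes of the set lay below 0 and the median was -0.08, against 0.10 for all genes. The small-subunit genes (27 of 31 below 0, median -0.26) and the large-subunit genes (40 of 45 below 0, median -0.22) had like medians, and the 3 stalk genes had a median of -0.19. The log2 ratio of summed small to summed large subunit counts was -0.288 ± 0.124 in treated mice (SD, n = 7) and -0.248 ± 0.157 in control mice (SD, n = 4), a difference smaller than either SD.

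**Figure D2:**
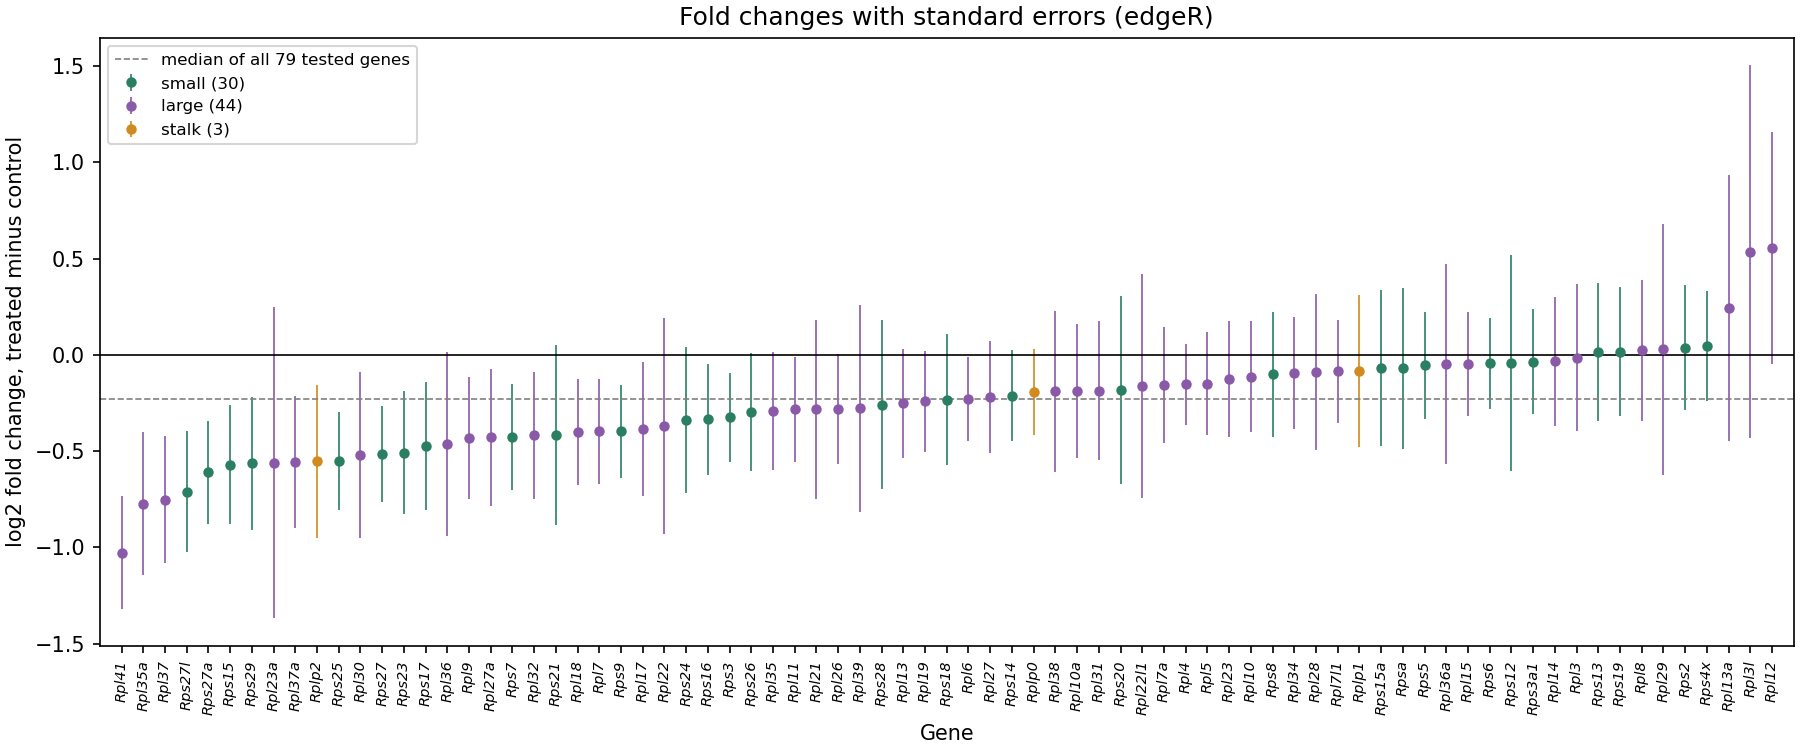
Log2 fold change, treated minus control, of 77 of the 79 tested ribosomal protein genes in order of size, coloured by subunit. Points are edgeR estimates, whiskers are 1 standard error, the dashed line is the median of all 79 at -0.23. Most points lie below 0 with the TMM scaling used here (70 of the 79). The number was also 70 with DESeq2 size factors and with upper-quartile scaling. It was 30 with library totals alone, where the median of all genes was 0.25.

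Rpl41 had the largest difference. It encodes the smallest protein of the large subunit, on GRCm38 chr10:128548114-128549305 (minus strand; ENSMUSG00000093674). Its level was 55.3, 87.4, 121, 68.5, 76.4, 72.9 and 48.1 CPM in treated 1 to treated 7, and 75.1, 199, 182 and 160 CPM in control 1 to control 4. Control 2, control 3 and control 4 lay above all treated libraries, and control 1 lay among them. The log2 fold change was -1.03 ± 0.29 (SE), with an unadjusted p of 0.00342 and an adjusted p of 0.626 by edgeR's quasi-likelihood test. Without control 1 it was -1.25 (adjusted p = 0.220), and its adjusted p stayed between 0.133 and 1 over all alternatives run.

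Rpl37, a large-subunit protein with a zinc finger (chr15:5116645-5119140, plus strand), had a like arrangement of libraries. It stood at 26.9, 28.6, 44.3, 36.6, 34.6, 35.8 and 27.0 CPM in treated 1 to treated 7, and at 22.1, 68.9, 69.7 and 64.7 CPM in control 1 to control 4. Control 1 was the lowest of all 11 libraries and the other 3 control libraries were the highest 3. The log2 fold change was -0.75 ± 0.33 (SE; edgeR adjusted p = 0.693), and -1.02 without control 1 and -0.40 without control 3 and control 4. Rpl35a, a large-subunit gene mutated in some Diamond-Blackfan anaemia families, stood at 34.98 ± 13.5 CPM in treated mice (SD, n = 7) and 59.8 ± 27.7 CPM in control mice (SD, n = 4). Its log2 fold change was -0.77 ± 0.37 (SE; edgeR adjusted p = 0.731), and control 4 at 91.2 CPM was its highest library.

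Among small-subunit genes, Rps27a encodes a protein made as a fusion with ubiquitin (chr11:29545846-29548109, minus strand). It stood at 138, 140, 167, 88.4, 118, 137 and 117 CPM in treated 1 to treated 7, and at 95.9, 265, 178 and 251 CPM in control 1 to control 4. Again control 1 lay among the treated libraries and the other 3 control libraries above them. The log2 fold change was -0.61 ± 0.27 (SE; edgeR adjusted p = 0.693).

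Rps25, needed by some viral and cellular messages that start translation at an internal site, lies at chr9:44407139-44410427 (plus strand). It stood at 61.4, 57.2, 82.3, 57.9, 74.3, 47.2 and 54.3 CPM in treated 1 to treated 7, and at 54.2, 124, 103 and 83.6 CPM in control 1 to control 4. Control 4 exceeded treated 3 by little, so the groups nearly touched without control 1. The log2 fold change was -0.55 ± 0.26 (SE; edgeR adjusted p = 0.728). Rps9, the most abundant gene, stood at 599, 682, 590, 437, 617, 575 and 627 CPM in treated 1 to treated 7, and at 406, 1062, 720 and 917 CPM in control 1 to control 4. Its lowest library was control 1, and the other 3 control libraries again lay above all treated ones. Its log2 fold change was -0.40 ± 0.24 (SE; edgeR adjusted p = 0.823).

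**Figure D3:**
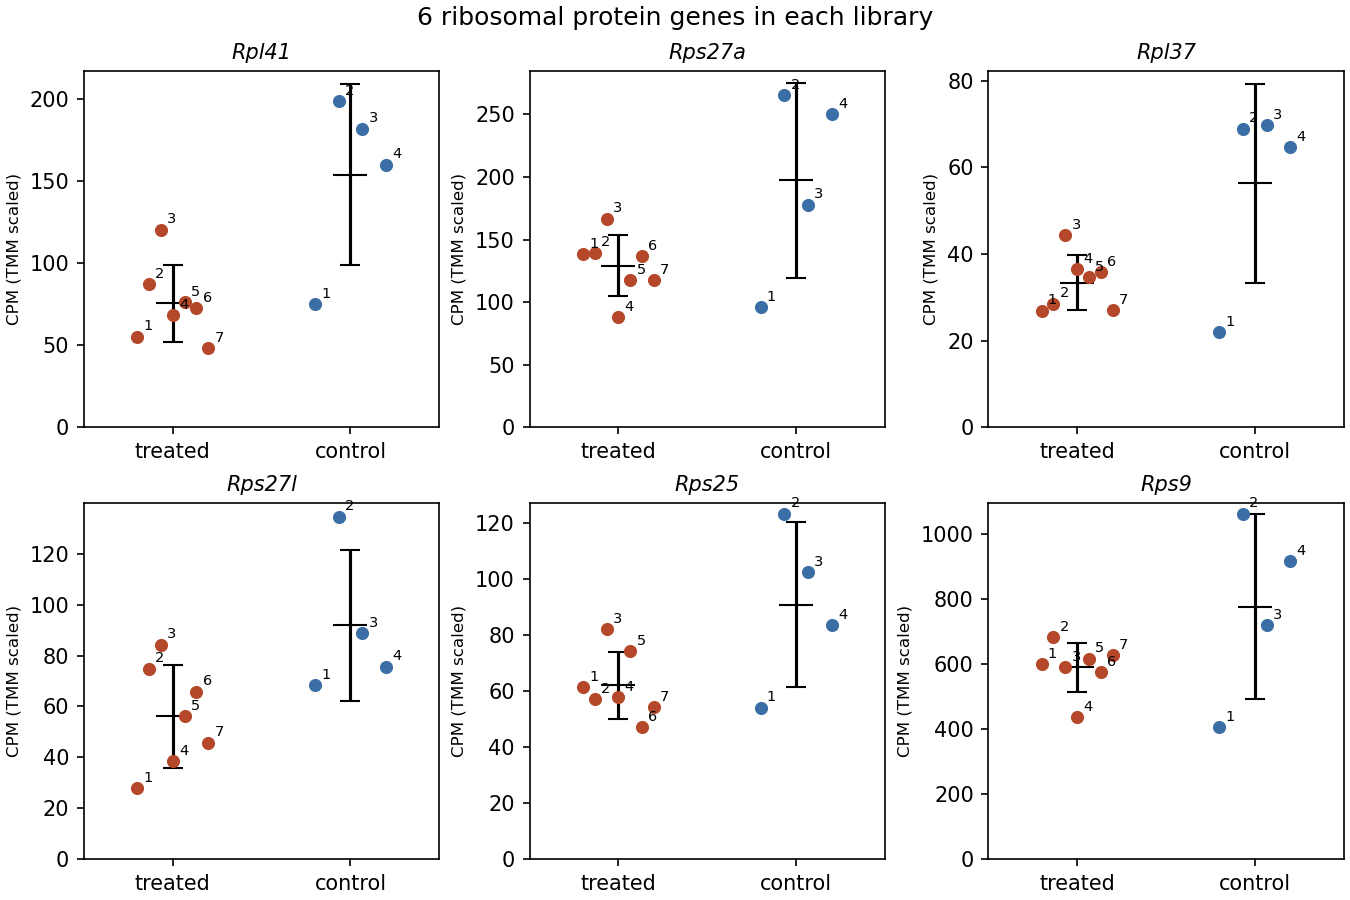
TMM-scaled CPM of 6 ribosomal protein genes in each library, treated left of control, with replicate numbers, means and SD whiskers; each panel has its own axis from 0. In Rpl41, Rps27a, Rpl37 and Rps25 the control libraries 2, 3 and 4 lie above the treated libraries, while control 1 lies within or below their range.

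The highest fold changes belonged to genes with few counts or with 1 high library. Rpl12, a large-subunit protein close to the stalk, stood at 14.6, 31.9, 76.5, 37.2, 16.1, 26.5 and 4.94 CPM in treated 1 to treated 7, and at 20.4, 31.8, 9.62 and 18.5 CPM in control 1 to control 4. Treated 3 was the highest and treated 7 the lowest of all libraries. The log2 fold change was 0.55 ± 0.60 (SE; edgeR adjusted p = 0.932), 0.13 without treated 3, and -0.09 without treated 3 and treated 4. The muscle paralog Rpl3l stood at 4.22 ± 2.98 CPM in treated mice (SD, n = 7) and 2.92 ± 1.33 CPM in control mice (SD, n = 4), a log2 fold change of 0.54 ± 0.97 (SE). Rpl13a, which in human monocytes leaves the ribosome after interferon-gamma to silence inflammatory messages, stood at 6.48 ± 1.41 CPM in treated mice and 5.48 ± 1.16 CPM in control mice. The X-linked small-subunit gene Rps4x averaged 115 ± 46.6 CPM in treated mice and 111 ± 21.8 CPM in control mice, and Rps2, a protein at the messenger entry of the small subunit, 85.1 ± 37.1 CPM in treated mice and 83.0 ± 17.4 CPM in control mice.

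Genes known for a role beyond the ribosome did not pass the test either. Rpl5 and Rpl11 bind Mdm2 when ribosome assembly fails and so stabilise p53, the factor that DNA damage also engages. Rpl5 stood at 74.5, 113, 168, 110, 78.1, 129 and 66.8 CPM in treated 1 to treated 7, and at 95.3, 109, 135 and 130 CPM in control 1 to control 4. The groups overlapped throughout, at 106 ± 36.0 CPM in treated mice (SD, n = 7) and 117 ± 18.4 CPM in control mice (SD, n = 4), with a log2 fold change of -0.15 ± 0.27 (SE; edgeR adjusted p = 0.954). Rpl11 stood at 42.5, 64.1, 83.8, 58.4, 70.0, 71.7 and 40.3 CPM in treated 1 to treated 7, and at 52.1, 92.4, 89.4 and 65.8 CPM in control 1 to control 4, or 61.5 ± 15.8 CPM in treated mice and 74.9 ± 19.3 CPM in control mice (-0.28 ± 0.27; edgeR adjusted p = 0.921). Rps6, the substrate of the S6 kinases downstream of mTORC1, stood at 98.4 ± 18.9 CPM in treated mice and 102 ± 23.9 CPM in control mice. Rps19, the gene most often mutated in human Diamond-Blackfan anaemia, stood at 119 ± 57.4 CPM in treated mice and 118 ± 19.9 CPM in control mice. Rps14, lost in a deletion form of human myelodysplasia, stood at 141 ± 30.5 CPM in treated mice and 163 ± 43.2 CPM in control mice. Rpl10, where the assembly of the large subunit ends, stood at 122 ± 34.1 CPM in treated mice and 133 ± 55.2 CPM in control mice, and Rpl3, at the peptidyl transferase centre, at 95.5 ± 48.6 CPM in treated mice and 96.4 ± 27.4 CPM in control mice. Rpl38, which in mouse embryos favours the translation of Hox messages, stood at 22.1 ± 8.70 CPM in treated mice and 25.2 ± 11.4 CPM in control mice, and Rpl39, a small protein of the exit tunnel, at 12.8 ± 7.14 CPM in treated mice and 15.6 ± 4.06 CPM in control mice. Rpsa, also known as a laminin receptor, stood at 54.2 ± 32.9 CPM in treated mice and 57.0 ± 23.6 CPM in control mice. For each of Rps6, Rps19, Rps14, Rpl10, Rpl3, Rpl38, Rpl39 and Rpsa the edgeR adjusted p was 0.935 or more.

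The stalk proteins recruit the elongation factors. Rplp0 stood at 434 ± 83.8 CPM in treated mice (SD, n = 7) and 496 ± 124 CPM in control mice (SD, n = 4). Rplp1 stood at 42.8 ± 20.1 CPM in treated mice and 45.4 ± 17.3 CPM in control mice. Rplp2 stood at 17.2, 26.9, 59.3, 29.3, 30.7, 27.0 and 11.8 CPM in treated 1 to treated 7, and at 30.3, 52.9, 42.1 and 44.0 CPM in control 1 to control 4. Treated 3 was its highest library, and 6 of 7 treated libraries lay below control 2, control 3 and control 4. The means were 28.9 ± 15.1 CPM in treated mice and 42.3 ± 9.30 CPM in control mice, with a log2 fold change of -0.55 ± 0.40 (SE; edgeR adjusted p = 0.866).

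Paralogs were also compared with their partners inside each library, where scaling cancels, as the log2 ratio of counts with 1 added to each. Rps27l (chr9:66946086-66949516, plus strand) is a p53 target in mouse and human cells. Its level was 27.8, 74.9, 84.3, 38.5, 56.2, 65.8 and 45.8 CPM in treated 1 to treated 7, and 68.4, 135, 89.0 and 75.6 CPM in control 1 to control 4. Control 2 and control 3 lay above all treated libraries, control 4 and control 1 within their range, and the log2 fold change was -0.71 ± 0.31 (SE; edgeR adjusted p = 0.693). Its partner Rps27 stood at 166 ± 38.9 CPM in treated mice and 238 ± 75.0 CPM in control mice. The log2 ratio of Rps27l to Rps27 was -1.62 ± 0.31 in treated mice (SD, n = 7) and -1.36 ± 0.41 in control mice (SD, n = 4), a difference of -0.27 (exact two-sided permutation test over 330 splits, p = 0.258, adjusted p = 0.595 over 3 ratios; the smallest p this design can give is 0.00303). Rpl22 is known to hold down its paralog Rpl22l1 in mouse. Rpl22 stood at 10.3, 14.9, 52.0, 23.5, 6.96, 19.3 and 18.2 CPM in treated 1 to treated 7, and at 17.4, 57.0, 17.6 and 14.5 CPM in control 1 to control 4, with treated 3 and control 2 far above the rest. Rpl22l1 stood at 11.6 ± 6.61 CPM in treated mice and 13.01 ± 4.78 CPM in control mice, with its highest level in treated 6 (24.6). The log2 ratio of Rpl22l1 to Rpl22 was -0.73 ± 0.74 in treated mice and -0.86 ± 0.69 in control mice (exact permutation p = 0.779, adjusted p = 0.779). Rpl7l1, a paralog that acts in ribosome assembly, stood at 102 ± 19.8 CPM in treated mice and 108 ± 44.7 CPM in control mice, and Rpl7 at 155 ± 44.3 CPM in treated mice and 204 ± 63.3 CPM in control mice. The log2 ratio of Rpl7l1 to Rpl7 was -0.57 ± 0.58 in treated mice and -0.94 ± 0.75 in control mice (exact permutation p = 0.397, adjusted p = 0.595). None of the 3 ratios differed beyond the spread between libraries.

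Levels varied between mice of the same group, and most of the genes varied together. Across the 11 libraries the correlation of a gene's log2 CPM with the mean of the other genes of the set had a median of 0.856, with 74 of 79 genes above 0.5, while the median over all genes tested, set against the mean of the set, was -0.047. All of these genes share library and depth, so this is a description. Rps29 followed the others most closely (0.960). The exceptions were Rpl3l (-0.254), Rpl7l1 (-0.070), Rpl29 (0.010), Rpl13a (0.457) and Rps9 (0.464). Of these, Rps9 (657 CPM on average) and Rpl7l1 (104 CPM) had the higher counts. Treated 3, the highest library for many genes, had 590 CPM of Rps9, within the range of the other treated libraries. The median coefficient of variation over the 11 libraries was 35.8%. It was 18.9% for Rpl4, among the lowest, and 71.2% for Rpl22 and 74.2% for Rpl12, the highest of the 79. Treated 3 was the highest library for 33 of the 79 genes and control 2 and control 3 for 18 each. Treated 7 was the lowest for 37, control 1 for 17 and treated 1 for 15.

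**Figure D4:**
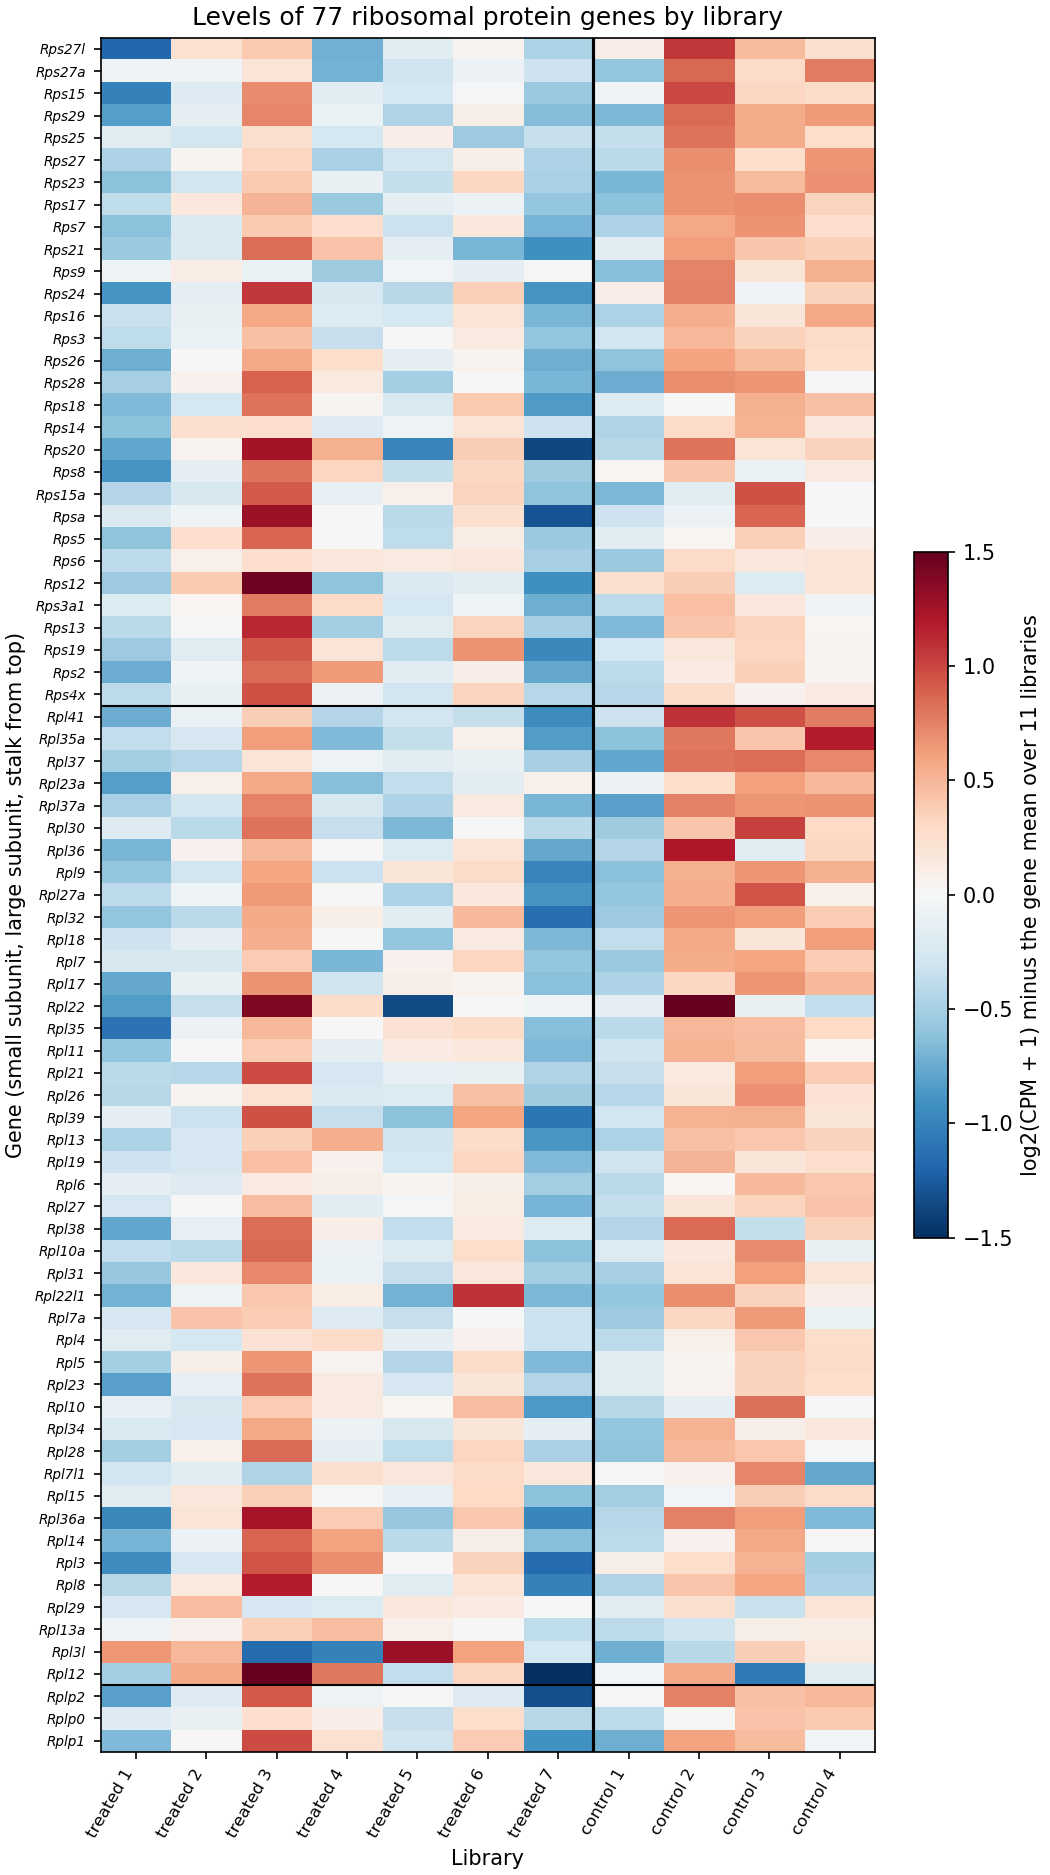
Levels of 77 of the 79 tested ribosomal protein genes as log2(CPM + 1) minus the gene's mean over the 11 libraries, with treated libraries left of the vertical line and control libraries right of it. Rows run by subunit and by fold change, and values beyond the colour bar take its end colour. Treated 3 and the control libraries 2, 3 and 4 are red in most rows, and treated 1, treated 7 and control 1 are blue in most rows.

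Treated 3 also had the highest B cell marker level. Among the 7 treated libraries the share of ribosomal protein counts went with the summed level of the 6 B cell markers, 4 of which were detected in every library (Spearman 0.821, Pearson 0.855), and among the 4 control libraries it did not (Spearman 0, Pearson 0.263). With so few points these values are a description, and the part of B cell RNA in these levels was not tested. Lymphocytes lie outside the gate's scatter and F4/80 limits, and Cd79b ran from 22.3 to 787 CPM in treated mice, and from 0 to 260 CPM in control mice. Without treated 3 and treated 4, the 2 treated libraries with the highest B cell level, 76 of the 79 fold changes lay below 0. The median was -0.43, against 0.005 for all genes in that fit. In the set 10 genes had an unadjusted p under 0.05. The share of all genes in that fit is not given, so this count cannot be read as a result about the set. At the adjusted threshold there were 0, as among all 10725 genes tested. Treated 3 was also the highest library for 33 of the 79 genes, so leaving it out lowers the treated levels of the set. This split was added after the data were seen.

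The fold changes also went with transcript length. Over the 79 genes the log2 fold change was higher the longer the annotated transcript (Spearman 0.426, Pearson 0.391), and over all genes with a length the correlation was weaker (Spearman 0.212). The shortest 27 genes of the set (271 to 589 bases) had a median of -0.42, the middle 26 (597 to 860 bases) one of -0.23, and the longest 26 (878 to 3706 bases) one of -0.14. Of the 5 genes with an unadjusted p under 0.05, 3 were among the shortest 27 and 2 among the middle 26. With an offset for length and GC content the median of all genes was -0.21, against 0.03 without it. The median of the set relative to all genes was therefore -0.02, against -0.26 without the offset. The set's own median stayed near its value without the offset, and it was the median of all genes that moved.

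**Figure D5:**
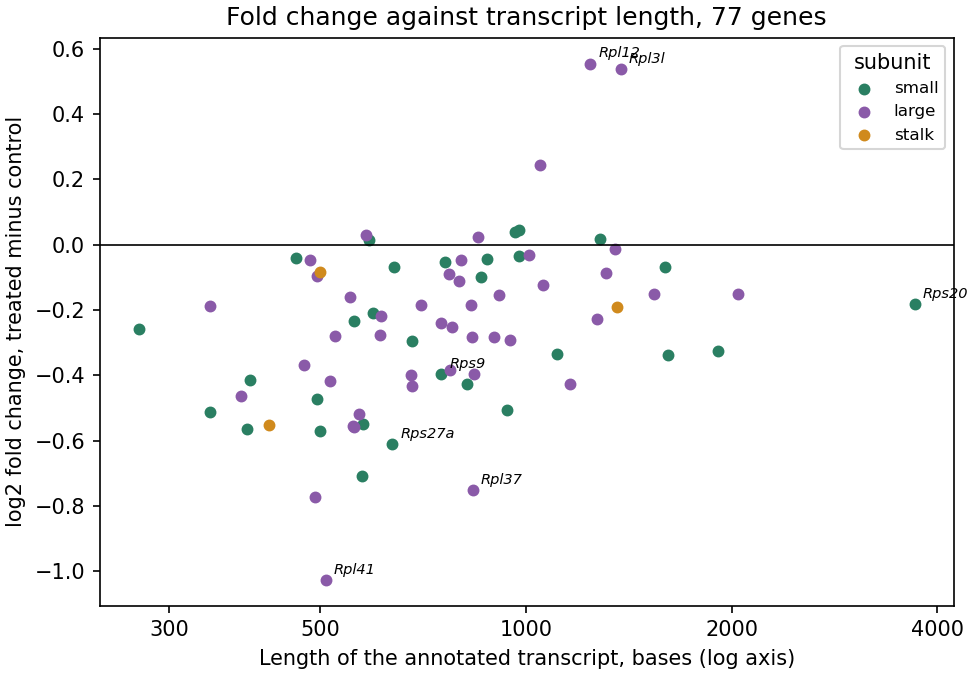
Log2 fold change, treated minus control, against the length of the annotated transcript in bases on a log axis, for 77 of the 79 tested genes coloured by subunit. Short genes lie lower than long ones on the whole, and Rps20 is the lone gene with a transcript of 3706 bases.

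Reads of processed pseudogenes can be shared with these genes. The table holds 303 pseudogene rows named after them, which are not part of the set. Their summed counts equalled 0.311% to 0.534% of those of the set in treated mice and 0.304% to 0.583% in control mice. The level per kilobase and the number of pseudogene rows had a Spearman correlation of -0.257 over the 79 genes.

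Other genes of the translation apparatus were read from the same fit. The list of translation factors and other TOP messages had 23 tested genes, of which 14 lay below 0 with a median of -0.16. With library totals alone the median was 0.12. Relative to all genes it was -0.18 with TMM and -0.13 with library totals alone. At an unadjusted p under 0.05 the list had 2 genes above 0, against 3.70% of all genes tested, and 1 below 0 (4.35%), against 3.13%. Eef2, the translocase of elongation, stood at 630 ± 113 CPM in treated mice (SD, n = 7) and 402 ± 111 CPM in control mice (SD, n = 4), a log2 fold change of 0.65 ± 0.23 (SE; edgeR adjusted p = 0.626). Eef1a1, which brings charged tRNA to the ribosome, stood at 779 ± 170 CPM in treated mice and 745 ± 240 CPM in control mice. Pabpc1, the poly(A)-binding protein, stood at 449 ± 116 CPM in treated mice and 797 ± 708 CPM in control mice.

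Ribosome biogenesis genes were split evenly, with 17 of 36 below 0 and a median of 0.02 (-0.10 without control 3 and control 4). Myc, which drives many of them, stood at 74.3 ± 47.3 CPM in treated mice and 29.5 ± 18.7 CPM in control mice, a log2 fold change of 1.33 ± 0.56 (SE; edgeR adjusted p = 0.671). Eif6, which keeps the subunits apart until assembly is complete, stood at 164 ± 17.7 CPM in treated mice and 190 ± 25.8 CPM in control mice, and Ncl, nucleolin, at 155 ± 44.6 CPM in treated mice and 150 ± 47.5 CPM in control mice.

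Of 24 genes of mTORC1, the S6 kinases and the cap-binding complex, 11 lay below 0 and the median was 0.16, against 0.03 for all genes. With the length and GC offset the median was -0.15, against -0.21 for all genes. Eif4g2, a scaffold of cap-independent initiation, stood at 529 ± 98.9 CPM in treated mice and 434 ± 13.6 CPM in control mice, and the kinase gene Rps6ka1 at 355 ± 122 CPM in treated mice and 267 ± 102 CPM in control mice. Rps6ka3 had the smallest p of the list, with 35.2 ± 18.5 CPM in treated mice and 18.3 ± 11.1 CPM in control mice (edgeR adjusted p = 0.819). Of 12 tested genes of ribosome rescue and ribosome stress, 4 lay below 0 and the median was 0.34 (-0.09 without control 3 and control 4). Mdm2 stood at 134 ± 37.4 CPM in treated mice and 99.4 ± 48.1 CPM in control mice, the p53 target Cdkn1a at 99.99 ± 51.6 CPM in treated mice and 75.5 ± 40.4 CPM in control mice, and Hbs1l, a rescue factor, at 34.8 ± 15.5 CPM in treated mice and 14.8 ± 12.04 CPM in control mice.

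The proteins of the mitochondrial ribosome are encoded in the nucleus by their own genes. Of 77 tested, 60 lay below 0 (77.9%), against 48.2% of all genes, with a median of -0.36. With library totals alone the median was -0.14. Relative to all genes it was -0.38 with TMM and -0.39 with library totals alone. An unadjusted p under 0.05 was found in 5, all below 0 (6.49%), against 3.13% of all genes in that direction and 6.82% in either. Mrpl57 had the smallest p, with 31.6 ± 5.66 CPM in treated mice and 54.9 ± 8.38 CPM in control mice (log2 fold change -0.80 ± 0.27, SE; edgeR adjusted p = 0.626). Mrpl33 stood at 134 ± 34.4 CPM in treated mice and 188 ± 34.3 CPM in control mice, and Mrps14 at 84.7 ± 21.8 CPM in treated mice and 116 ± 33.4 CPM in control mice. In all 5 lists edgeR called 0 genes at the adjusted threshold, and DESeq2 called 1, in the mitochondrial list. How the mitochondrial and cytosolic sets differ was not tested.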

How the data were processed

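The deposited table holds raw counts for each Ensembl gene in 11 libraries, as the authors made it. bcl2fastq 2.20.0.422 was used, with HISAT2 2.10, SAMtools 1.15.1 and the build GRCm38, per the submitters' processing notes. Which counter, strand setting and annotation release were used is not given in the sources used here. Overlapping genes, antisense genes and pseudogenes may therefore share reads. A single unnamed row with 0 counts was left out. All pairs of libraries differed beyond sampling noise (lowest chi-square per gene 55.2). Each library is from a separate mouse.

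The 7 treated and 4 control libraries were compared with edgeR 4.0.16 under R 4.3.3 (quasi-likelihood test with robust dispersion, TMM scaling, filterByExpr with a minimum count of 10, Benjamini-Hochberg adjustment over 11389 genes, threshold 0.05, no covariate). DESeq2 1.42.0, limma 3.58.1 and other scalings, filters, covariates and left-out libraries were alternatives; leaving out treated 3 with treated 4 was added after the data were seen. The test was run on simulated data first. Transcript lengths came from GENCODE M21, using for each gene the shortest transcript among those with the longest coding sequence. Reads had no molecular identifiers, so floors and intervals cover counting error alone. The genes and lists were chosen with earlier results of these data known. Named genes were the 6 with the highest level per length, the 5 with the smallest p and the 3 with the largest change in each direction, and a set list, given by library where results turn on them and otherwise as mean and SD; of each list, the 2 most abundant genes and the 1 with the smallest p. A few values of genes in the set are not reported here, and their points are left out of the figures.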

Additional observations from a re-analysis of the deposited data

Results flagged for a closer look

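Of 74 groups of libraries checked for a single library far from the rest, 9 were marked, and chance marks about 1 in 20. These genes move together from library to library, so the marks are not separate events. Their number can therefore not be set against that rate. In treated libraries, treated 3 stood alone in 5 genes. Rpl22 was 52.0 CPM there, against 6.96 to 23.5 in the other treated libraries, and Rpl38 was 39.6 CPM against 12.2 to 24.0. Rplp2 was 59.3 CPM in treated 3, against 11.8 to 30.7, Rps4x 211 CPM against 80.6 to 137, and Rpsa 123 CPM against 19.6 to 58.8. In control libraries, Rpl13 was 149 CPM in control 1, against 263 to 282 in the other 3, and Rpl37 was 22.1 CPM there, against 64.7 to 69.7. Rpl22 was 57.0 CPM in control 2, against 14.5 to 17.6 in the other control libraries. The share of counts on ribosomal protein genes was 1.07% in control 2, against 0.633% to 0.643%.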

How the results depend on the processing

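None of the ribosomal protein genes was called under any of the 26 alternatives run, DESeq2 and a threshold of 0.1 included, while 1 to 13 had an unadjusted p under 0.05. The share of all genes with such a p in the same fits is not given. These counts, and those for single alternatives below, can therefore not be read as results about the set. The 5 genes with an unadjusted p under 0.05 kept fold changes below 0 throughout. The median fold change of the set lay above 0 with library totals alone (0.09) and below 0 under the other alternatives, each library left out in turn included. The fold changes of single genes changed sign more often, their values are given below, and the cause was not tested. With library totals alone, 30 genes lay below 0, 1 had an unadjusted p under 0.05, and the TOP messages had a median of 0.12. The median of all genes was 0.25 in that fit. There, values above 0 were found for Rpl10 (0.245), Rpl13 (0.066), Rpl22l1 (0.13), Rpl3 (0.27), Rpl38 (0.056), Rpl39 (0.037), Rpl4 (0.17), Rpl5 (0.17), Rpl7l1 (0.17), Rplp0 (0.14), Rplp1 (0.23), Rps14 (0.098), Rps6 (0.25) and Rpsa (0.31). Without control 3 and control 4, 45 genes lay below 0, 1 had an unadjusted p under 0.05, the rescue and stress genes had a median of -0.089 (-0.19 relative to all genes), and Rpl10 (0.34), Rpl4 (0.14), Rpl5 (0.087), Rpl7l1 (0.016), Rplp0 (0.17), Rplp1 (0.043), Rps14 (0.041), Rps6 (0.13) and Rpsa (0.36) lay above 0. Without treated 3 and treated 4, 10 genes had an unadjusted p under 0.05, and Rpl12 (-0.092), Rps19 (-0.25), Rps2 (-0.34) and Rps4x (-0.18) lay below 0. With DESeq2 the mitochondrial list had 1 call.

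With limma-voom and quality weights, 2 genes of the set had an unadjusted p under 0.05, the mTORC1 list lay at -0.092 relative to all genes, and signs changed for Rpl10 (0.061), Rpl12 (-0.078), Rpl7l1 (0.045), Rps19 (-0.059), Rps2 (-0.025) and Rps6 (0.023). With all genes of any count, 3 genes had an unadjusted p under 0.05, the TOP messages lay at -0.36 relative to all genes and Rpl3 at 0.009. With the number of detected genes as a covariate, 1 gene had an unadjusted p under 0.05, the rescue and stress genes had a median of -0.054 (-0.11 relative to all genes), and signs changed for Rpl10 (0.034), Rpl12 (-0.135), Rpl7l1 (0.09), Rps19 (-0.23), Rps4x (-0.19) and Rps6 (0.096). Without erythroid and platelet genes Rpl3 was 0.011. With the length and GC offset the mTORC1 list had a median of -0.15 and the rescue and stress genes one of -0.024, against -0.21 for all genes. In that fit Rpl22l1 was 0.056 and Rps19 -0.054. The letters in the identifiers split treated 1 and the controls from treated 2 to treated 7. With them as a covariate, the fold change rests on treated 1 against the control libraries, so it does not compare the whole groups. In that fit the set had a median of -0.70 and the mitochondrial list one of -0.88 (-0.80 relative to all genes). There Rpl12 (-0.47), Rps19 (-0.64), Rps2 (-0.82) and Rps4x (-0.43) lay below 0.

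Samples that share a replicate number did not deviate together (correlations of -0.039, 0.022, -0.11 and -0.05 for numbers 1 to 4, none best with its own number). The replicate block changed no call. With it, 58 genes lay below 0 with a median of -0.18, 1 had an unadjusted p under 0.05, the TOP messages had a median of 0.027, and signs changed for Rpl3 (0.014), Rpl3l (-0.22), Rplp1 (0.057), Rps6 (0.005) and Rpsa (0.14).

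Leaving out each library in turn gave 55 to 76 genes below 0 and a median of -0.38 to -0.13. An unadjusted p under 0.05 was found in 1 to 13 genes (13 without control 1, 11 without treated 3), again without the share of all genes. Relative to all genes the mTORC1 list ran from -0.10 to 0.17 and the rescue and stress genes from -0.051 to 0.45. The log2 ratio difference of Rpl22l1 to Rpl22 ran from -0.12 to 0.33. Fold changes crossed 0 for Rpl10 (-0.26 to 0.25), Rpl22 (-0.77 to 0.33), Rpl22l1 (-0.45 to 0.067), Rpl3 (-0.21 to 0.17), Rpl38 (-0.38 to 0.14), Rpl7l1 (-0.27 to 0.22), Rplp1 (-0.30 to 0.11), Rps19 (-0.18 to 0.14), Rps2 (-0.13 to 0.19), Rps4x (-0.16 to 0.14), Rps6 (-0.20 to 0.047) and Rpsa (-0.41 to 0.29). The common biological coefficient of variation was 0.828 over all genes, and counts were too few to test Rps10, Rpl24, Rpl39l and Rpl10l.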
